A study of Mus musculus with 22 samples.

Results

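The mRNA levels of 6 mouse lungs given 162 µg Mitsui7 were compared with those of 5 lungs given 54 µg, 11 of the 22 lungs on the arrays. These lungs were chosen by the dose in their labels, and no measured value was used to choose them. The comparison addresses whether the pulmonary response went on, levelled off or turned back between the middle and the high dose. The animals were female C57BL/6 mice, 8 weeks old when the experiment began, killed 24 hours after a single intratracheal instillation of 40 µl under Hypnorm and Dormicum anaesthesia. Mitsui7 is a multi-walled carbon nanotube, a rigid fibre of nested carbon sheets, dispersed here in 0.9% NaCl with 10% acellular bronchoalveolar lavage (BAL) fluid. The remaining lungs came from 5 mice given this vehicle alone and 6 mice given 18 µg. All mice, controls included, therefore received anaesthetics, vehicle and lavage protein. Right lung RNA carried Cy5, and a common reference made from pooled cell lines of mouse carried Cy3, with no dye swap, so each level below is the lung signal over the reference signal on the log2 scale. A difference is the log2 ratio at 162 µg minus that at 54 µg, estimated by limma with dose and slide as terms. The lung markers surfactant protein C (Sftpc) and secretoglobin 1A1 (Scgb1a1) were far above the reference in both doses, from 5.92 to 9.48 for Sftpc and from 6.31 to 9.21 for Scgb1a1.

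Long, poorly soluble fibres that reach the alveoli are taken up by macrophages and touch the epithelium. Both cell types then release cytokines and chemokines that draw neutrophils, monocytes and eosinophils into the lung. Lung cells also synthesise acute phase proteins such as serum amyloid A, and glucocorticoids released from the adrenal gland raise a set of target genes in lung cells during systemic stress. Many of these mediators also induce their own inhibitors.

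No gene passed the threshold between the doses. Of 15466 expressed genes, limma called 0 (0%), where a call needed an adjusted p no higher than 0.05 and a difference of 1.5-fold or more, and the lowest adjusted p was 0.0825. At an unadjusted p under 0.05 there were 1077 genes with a higher level at 162 µg (6.96%) and 935 with a lower level (6.05%). Counts of list members at that p, given below, are to be read beside these shares. The 6 lungs at 162 µg all lay above the 5 lungs at 54 µg for 57 genes (0.369%) and all lay below them for 54 genes (0.349%). List members other than the fixed genes and the 2 of smallest p in each list were named for an unadjusted p under 0.05, after their values were seen. The median difference over all expressed genes was 0.00463 and its median standard error 0.14. For 11398 genes (73.7%) the 95% interval of the difference lay inside 1.5-fold, so a larger step between the doses is outside the interval for these genes. For the others the interval reached past 1.5-fold, and a p that misses the threshold does not show that the doses acted alike. The labels do not say whether mice were handled in batches, so these p-values measure the spread between individual lungs. Bulk lung RNA cannot tell fewer cells of a type from less RNA per cell.

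The calls depended on which lungs were kept. The median correlation of an array with the others of its dose was 0.904 to 0.928 at 54 µg and 0.863 to 0.94 at 162 µg. The 22 arrays lay on 7 slides, and 4 of these, numbered 3, 5, 6 and 7 here, held a lung of both doses. On slide 3 lay 54 µg replicate 3 and 162 µg replicate 4, which had the largest shares of outlier spots in their groups, 3.23% and 4.42%. Across expressed genes, each centred on its mean over 22 arrays, 54 µg replicate 3 had a correlation of -0.349 with the mean of the other 54 µg lungs and of 0.237 with the mean of the 162 µg lungs. For 162 µg replicate 4 these correlations were 0.359 with the 54 µg lungs and 0.261 with the other 162 µg lungs, and it was the only 162 µg lung nearer to the 54 µg mean. Of the 5 lungs at 54 µg 4 were nearer to the 162 µg mean than to that of their own dose, and the gap was widest for 54 µg replicate 3. Without 54 µg replicate 3, limma called 171 of 15238 genes, 90 higher (0.591%) and 81 lower (0.532%) at 162 µg, and 1344 genes (8.82%) were higher and 1528 (10%) lower at an unadjusted p under 0.05. Without 162 µg replicate 4 it called 48 genes, of which 38 were among the 171. All of these genes had the same sign of difference when every lung was kept. Both lungs were kept under their labels, and whether the pair was exchanged was not tested. An exchange would change the meaning of every difference below. Results are given for all lungs and, for the genes and lists the text turns on, also without 54 µg replicate 3. The median of 33 of 49 gene lists moved by over 1.5 times or changed sign without it. Leaving this lung out was chosen as a second view after its values were seen. Most genes given below as called without 54 µg replicate 3 were not called without 162 µg replicate 4. Those called in both cases were Cd209c, Ucp3, Pnpla2, Ctsh, Vcam1, Apln and Lox. Pdia5, Sphk1, Pgf, Etv1, Tcf23, Gas2 and Eci2, whose values without 54 µg replicate 3 are not given below, were also called in both cases. 162 µg replicate 6 had the lowest signal over background of the 11 arrays, 1.18 against 1.37 to 2.50 in the others, and stood at the edge of its group for several genes named below.

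**Figure D1:**
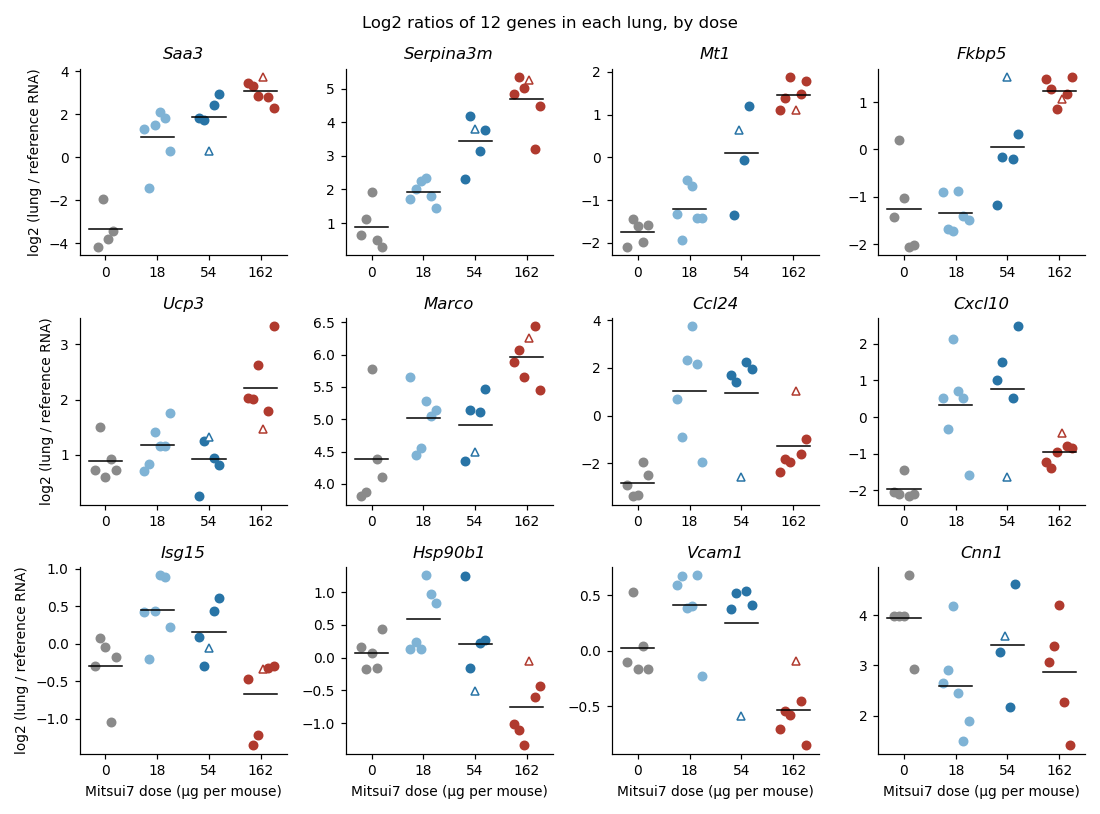
Log2 ratios of lung to reference RNA (vertical axes) in each lung at 0, 18, 54 and 162 µg Mitsui7 (horizontal axes) for 12 genes, with a horizontal line at each mean and triangles for the pair of lungs on slide 3. For Ccl24 the triangle at 54 µg sits at -2.58 below 4 lungs between 1.40 and 2.27, and the triangle at 162 µg sits at 1.03 above 5 lungs between -2.34 and -0.96.

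Acute phase genes mostly had higher values at 162 µg, and none passed the test. Of 22 expressed acute phase genes, 7 had an unadjusted p under 0.05 with a higher level at 162 µg and 0 with a lower level, and their median difference was 0.47. That median was 0.36 without 54 µg replicate 3, with 4 higher and 2 lower. Serum amyloid A3 (Saa3), an acute phase apolipoprotein made by lung epithelium and macrophages, had log2 ratios of 1.85, 1.74, 0.30, 2.46 and 2.95 in the 54 µg lungs. At 162 µg its lowest value was 2.30, its median 3.08 and its highest 3.74. Every lung of both doses lay above the 4 controls with a value, the highest of which was at -1.93, and the ranges of the doses overlapped. The difference of Saa3 was 1.24 (95% interval -0.13 to 2.62, adjusted p = 0.702 in limma) with all lungs and 0.59 without 54 µg replicate 3. Serpina3m, a protease inhibitor of the antichymotrypsin family, had log2 ratios of 2.32, 4.18, 3.79, 3.14 and 3.77 at 54 µg and a lowest, median and highest value of 3.21, 4.92 and 5.34 at 162 µg. All but 1 of the 162 µg lungs were above all 54 µg lungs, and the difference was 1.11 (95% interval 0.61 to 1.62, adjusted p = 0.202) and 1.07 without 54 µg replicate 3. On all 4 slides with both doses the 162 µg lung was the higher for Serpina3m, by 1.47, 1.17, 0.71 and 0.07.

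Other acute phase genes spread widely between the 162 µg lungs. Saa2 ranged from 1.93 in 162 µg replicate 6 to 6.03 in 162 µg replicate 1, against 2.25 to 4.41 at 54 µg, and its difference was 1.28 (95% interval 0.02 to 2.55, adjusted p = 0.629). Orosomucoid 3 (Orm3), a plasma glycoprotein, ranged from 0.95 to 2.32 at 162 µg against 0.64 to 1.27 at 54 µg, with a difference of 0.82 (95% interval 0.41 to 1.23), and it was called when 162 µg replicate 6 was left out. Orm1, the lipopolysaccharide-binding protein Lbp, the fibrinogen gamma chain Fgg and hemopexin (Hpx) had differences of 0.65, 0.53, 1.01 and 0.71. Saa1, which lacked a value in 54 µg replicate 3, differed by 0.47 (95% interval -0.53 to 1.46). Against controls the same lungs gave a median over the list of 1.08 at 54 µg and 1.31 at 162 µg, and the 18 µg lungs 0.60. Interleukin 6 (Il6), the cytokine that induces many acute phase genes, overlapped fully between the doses, from -1.28 to 1.57 at 54 µg and from 0.08 to 1.59 at 162 µg. Its difference was 0.77 (95% interval -0.28 to 1.82), and 0.09 without 54 µg replicate 3.

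Among the 30 fixed genes the most negative differences were those of the chemokines Ccl24 and Cxcl10, and their calls rested on which lungs were kept. The eosinophil attractant Ccl24 (eotaxin-2) had log2 ratios of 1.72, 1.40, -2.58, 2.27 and 1.97 in the 54 µg lungs. At 162 µg the lowest, median and highest values were -2.34, -1.71 and 1.03, where the highest came from 162 µg replicate 4. Apart from the pair on slide 3 the doses did not overlap. The difference was -2.06 (95% interval -4.09 to -0.03, adjusted p = 0.627) with all lungs. Without 54 µg replicate 3 it was -3.64 (adjusted p = 0.0138), and Ccl24 was then called lower at 162 µg. Within slides 5, 6 and 7 the difference of Ccl24 was -3.22, -2.93 and -3.86, and on slide 3 it was 3.61. The mean of Ccl24 over control lungs was -2.81 and over 18 µg lungs 1.02, beside means of 0.96 for the middle and -1.27 for the high dose.

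Cxcl10, an interferon-induced attractant of T cells, had 54 µg replicate 3 apart from the other lungs of its dose. It had log2 ratios of 1.01, 1.51, -1.64, 0.52 and 2.48 at 54 µg and a lowest, median and highest value of -1.40, -0.90 and -0.44 at 162 µg. Every 162 µg lung lay below 4 of the 54 µg lungs and above the fifth, 54 µg replicate 3. The difference was -1.75 (95% interval -3.03 to -0.47, adjusted p = 0.412), and -2.51 (adjusted p = 0.0363, called) without that lung. The monocyte attractant Ccl7 had log2 ratios of -0.33, -0.31, -3.11, -0.14 and 0.97 at 54 µg and -2.23, -1.67 and -0.07 as lowest, median and highest at 162 µg. Its difference of -0.72 (95% interval -2.06 to 0.62, adjusted p = 0.882) became -1.75 (adjusted p = 0.0432, called) without 54 µg replicate 3.

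Other chemokines fixed for naming had intervals that included 0. For Ccl2, which recruits monocytes, the difference was -0.46 (95% interval -1.49 to 0.57). Ccl11, the eosinophil attractant eotaxin-1, differed by -0.57 (95% interval -1.90 to 0.76), Ccl17 by -0.32 (-0.98 to 0.35) and the neutrophil attractant Cxcl5 by -0.58 (-1.82 to 0.66). Without 54 µg replicate 3 these became -1.16, -1.45, -0.61 and -1.52, and none was called. The neutrophil attractant Cxcl1 differed by 0.30 (95% interval -0.35 to 0.96) with all lungs and by -0.10 without that lung. Interleukin 33 (Il33), an epithelial alarmin of type 2 immunity, had values from 1.61 to 4.38 at 54 µg and from 1.54 to 3.74 at 162 µg, with a difference of -0.74 (95% interval -1.96 to 0.48). The 13 expressed monocyte chemokine genes had a median difference of -0.35, and the single member at an unadjusted p under 0.05 was Cx3cl1, or fractalkine, at -0.42. The median was -0.61 without 54 µg replicate 3, with 5 members lower at an unadjusted p under 0.05, and without 54 µg replicate 5 it was 0.06. The median by slide was 1.31, -0.17, -1.79 and -0.54 on slides 3, 5, 6 and 7. Set against controls, these genes had a median of 0.73 at 18 µg, 0.53 at 54 µg and 0.58 at 162 µg. The 21 genes of eosinophil and type 2 cytokines had a median of -0.20. At an unadjusted p under 0.05, 2 of them were lower and 2 higher, beside 6.05% and 6.96% of all genes. That median was -0.44 without 54 µg replicate 3, with 8 lower and 1 higher, and without 54 µg replicate 5 it was -0.03.

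Among homeostatic lymphoid chemokines, Ccl19, which guides dendritic cells and T cells in lymphoid tissue, had log2 ratios of 0.44, 0.90, 0.49, -0.22 and 1.37 at 54 µg and 0.42 to 1.80 at 162 µg. The doses overlapped, and its difference was 0.64 (95% interval 0.36 to 0.93, adjusted p = 0.187), or 0.70 (adjusted p = 0.0440, called) without 54 µg replicate 3. The 3 probes of Ccl19 differed by 0.23 to 0.64. Its receptor Ccr7 differed by 0.63 and Cxcl12 by -0.68. Cd209a and Cd209c, C-type lectins of dendritic cells and macrophages that were singled out after their values were seen, differed by -0.93 and -1.05. Both were called without 54 µg replicate 3, at -1.39 for Cd209a and -1.24 for Cd209c, although Cd209c stood well above background in 2 of 6 lungs at 162 µg and 4 of 5 at 54 µg.

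**Figure D2:**
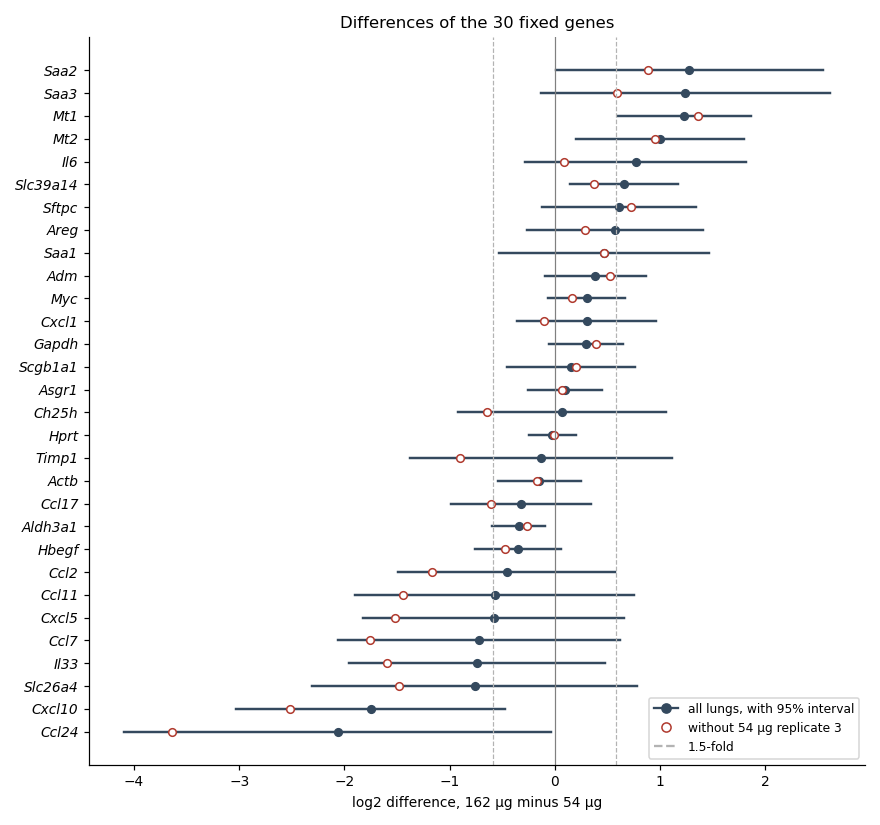
Log2 difference, 162 µg minus 54 µg, of 30 named genes (points) with 95% intervals (bars), and the difference without 54 µg replicate 3 (open circles). Dashed lines mark 1.5-fold. The intervals of Ccl24, Cxcl10 and Aldh3a1 lie below 0, those of Mt1, Mt2, Slc39a14 and Saa2 lie above 0, and no adjusted p passed the threshold.

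Interferon-induced genes had lower values at 162 µg almost throughout the list. Of 27 expressed members 26 had a negative difference, against 51% positive differences over all genes. Members of a list can vary together, and other lists were nearly as one-sided. Of 16 cardiac muscle genes 15 were negative, and of 33 mitosis genes 30 were positive. Of the interferon-induced genes 5 had an unadjusted p under 0.05, all lower, beside 6.05% of all genes. Without 54 µg replicate 3 it was 13, beside 10% of all genes. The median difference was -0.25 with all lungs and -0.36 without 54 µg replicate 3, and it was negative on all 4 slides, at -0.08, -0.20, -0.26 and -0.17. Set against controls, the list had a median of 0.19 at 18 µg, 0.04 at 54 µg and -0.23 at 162 µg. Isg15, a ubiquitin-like modifier, had log2 ratios of 0.09, -0.29, -0.06, 0.43 and 0.61 in the 54 µg lungs and -1.35, -0.41 and -0.30 as lowest, median and highest at 162 µg. No 162 µg lung reached the lowest 54 µg lung. The difference of Isg15 was -0.73 (95% interval -1.19 to -0.27, adjusted p = 0.32), and on the 4 slides it was -0.29, -1.06, -0.92 and -0.75. Bst2, or tetherin, which holds budding virus at the cell surface, had log2 ratios of 0.63, -0.01, 0.69 and -0.12 in 4 lungs at 54 µg and -1.5 to -0.12 in 5 lungs at 162 µg. The spots of both lungs on slide 3 were outliers for Bst2 and gave no value. Its difference was -0.91 (95% interval -1.33 to -0.49, adjusted p = 0.215). The guanylate-binding proteins Gbp2 and Gbp5 differed by -0.37 and -0.56. Cmpk2, a mitochondrial nucleotide kinase listed with pyrimidine synthesis and known as interferon-induced, differed by -0.61 and was called at -0.79 without 54 µg replicate 3.

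The DNA just before the start of interferon genes is shown because it holds the repeat that their transcription factors recognise, the interferon-stimulated response element, searched on both strands as 2 GAAA boxes with any 2 bases between them. This pattern occurred in the 250 bases before the start of 978 of 32851 mouse promoters (2.98%) and of 13 of the 22 listed genes with a promoter sequence. Sequences are RefSeq promoters of build GRCm38.p6, written 5′ to 3′ on the strand of the gene, with matches in capitals, where overlapping matches run together. The Isg15 stretch lies at chr4:156200860-156200911 on the minus strand and that of Bst2 at chr8:71537572-71537617 on the minus strand.
Isg15: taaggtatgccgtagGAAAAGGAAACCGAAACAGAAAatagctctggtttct
Bst2: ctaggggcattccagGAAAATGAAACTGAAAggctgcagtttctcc
A match describes letters only and is no evidence of binding in these lungs.

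Chaperones of the endoplasmic reticulum had lower values at 162 µg. In the list 6 genes were called when 54 µg replicate 3 was left out, and none of the 6 when 162 µg replicate 4 was. These chaperones fold secreted proteins, and their genes are switched on together when unfolded protein accumulates. Of 27 expressed genes of the unfolded protein response, 8 had an unadjusted p under 0.05 with a lower level at 162 µg and 2 with a higher level, and the median was -0.23. Leaving out 54 µg replicate 3 gave a median of -0.37, with 12 lower and 1 higher, and without 54 µg replicate 1 it was -0.11. Set against controls, the list had a median of 0.44 at 18 µg, 0.19 at 54 µg and 0.17 at 162 µg. Hsp90b1 (GRP94) had log2 ratios of 1.25, -0.16, -0.51, 0.23 and 0.27 at 54 µg and a lowest, median and highest value of -1.34, -0.81 and -0.05 at 162 µg. The ranges overlapped through 54 µg replicates 2 and 3 and 162 µg replicates 4 and 6. The difference of Hsp90b1 was -0.78 (95% interval -1.32 to -0.24, adjusted p = 0.385), and -1.11 (adjusted p = 0.029, called) without 54 µg replicate 3. Hspa5, or BiP, the master chaperone of this compartment, had log2 ratios of 2.07, 0.34, 0.06, 0.56 and 1.07 at 54 µg and -0.50 to 0.53 at 162 µg. It differed by -0.76 (95% interval -1.37 to -0.15) with all lungs and by -1.12 (adjusted p = 0.0458, called) without that lung.

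The further members called without 54 µg replicate 3 were Pdia6 at -1.13, Manf at -1.04, Calr at -0.80 and Edem1 at -0.73, 6 in all with Hsp90b1 and Hspa5, and each was lower at 162 µg. Over all genes 0.532% were called lower without that lung. Pdia6 is a disulfide isomerase, Manf a secreted stress factor, calreticulin (Calr) a lectin chaperone and Edem1 a factor of glycoprotein degradation. With all lungs their differences were -0.75, -0.70, -0.47 and -0.59, and Pdia3 and Creld2 differed by -0.61 and -0.68. The 2 members with higher values, Trib3 at 0.26 and Sesn2 at 0.47, are targets of the stress factor ATF4 and are no chaperones. Hsp90b1, Hspa5, Pdia6, Manf and Calr were singled out after their values were seen. The highest value of Hspa5, Hsp90b1, Pdia6, Manf, Calr and Edem1 among the 11 lungs was in 54 µg replicate 1. The lung levels of the list against its mean were 0.49 in that lung and 0.10, -0.21, 0.01 and 0.12 in the other 54 µg lungs, and ran from -0.24 to 0.06 at 162 µg.

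Pdia5, another disulfide isomerase and the gene with the smallest p in the comparison, had log2 ratios of -0.13, -0.30, -0.52 and -0.61 in 4 lungs at 54 µg and -1.58, -1.48 and -1.24 as lowest, median and highest of 5 lungs at 162 µg. Both lungs on slide 3 lacked a value for Pdia5, and the remaining lungs of the doses did not overlap. The difference was -1.07 (95% interval -1.37 to -0.78, adjusted p = 0.0825).

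A fixed pair of boxes, CCAAT and CCACG held 9 bases apart, is the response element of these chaperone genes. The 4 genes shown were called without 54 µg replicate 3 and also hold the pattern. This pattern was found on either strand in 37 of 32851 promoters (0.113%) and in 8 of the 24 listed genes with a promoter sequence, namely Calr, Canx, Creld2, Dnajc3, Hsp90b1, Hspa5, Pdia6 and Syvn1. Manf and Edem1, also called without that lung, are not among these 8. The stretches below come from the same source as above, with matches in capitals. They lie at chr2:34772010-34772058 on the plus strand (Hspa5), chr10:86705518-86705671 on the minus strand (Hsp90b1), chr8:84847060-84847108 on the minus strand (Calr) and chr12:17266476-17266524 on the plus strand (Pdia6).
Hspa5: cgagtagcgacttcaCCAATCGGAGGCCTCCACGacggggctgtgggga
Hsp90b1: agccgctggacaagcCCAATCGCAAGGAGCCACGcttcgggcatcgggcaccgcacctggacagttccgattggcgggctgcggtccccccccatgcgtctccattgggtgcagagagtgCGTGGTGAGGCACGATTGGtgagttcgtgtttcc
Calr: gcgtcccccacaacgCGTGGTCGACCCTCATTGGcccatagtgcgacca
Pdia6: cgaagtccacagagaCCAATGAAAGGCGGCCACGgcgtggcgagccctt

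Cytosolic heat shock chaperones had a median difference of -0.30 over 20 genes, with 9 lower and 2 higher at an unadjusted p under 0.05. The median was -0.48 without 54 µg replicate 3 and -0.18 without 54 µg replicate 1. The 9 were Hsph1 at -0.87, Hsp90aa1 at -0.62, Hsp90ab1 at -0.51, Hspe1 and Fkbp4 at -0.48, Hspd1 at -0.45, Chordc1 at -0.44, Hspa8 at -0.42 and Ahsa1 at -0.36. The 2 higher ones, Hspb1 at 0.40 and Hspb8 at 0.28, encode small heat shock proteins. Here too 54 µg replicate 1 had the highest list level, 0.72, against -0.15 to 0.14 in the other 54 µg lungs and -0.18 to -0.03 at 162 µg. Serpinh1, a collagen chaperone, differed by -0.88 (95% interval -1.43 to -0.34) and was called at -1.17 without 54 µg replicate 3.

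Targets of the glucocorticoid receptor had the highest median difference of the 49 gene lists, 0.54. Of 25 expressed members 23 had a positive difference, and 11 had an unadjusted p under 0.05, all higher at 162 µg. Set against controls, the median was -0.25 in the low, 0.54 in the middle and 1.09 in the high dose group, where the last 2 share their lungs with the present comparison. Fkbp5, a co-chaperone that restrains the receptor, had log2 ratios of -1.18, -0.16, 1.53, -0.21 and 0.33 at 54 µg and a lowest, median and highest value of 0.86, 1.23 and 1.53 at 162 µg. Only 54 µg replicate 3 reached the range of the 162 µg lungs. The difference of Fkbp5 was 1.13 (95% interval 0.40 to 1.87, adjusted p = 0.337), and on slides 3, 5, 6 and 7 it was -0.46, 1.43, 1.20 and 1.39. Hif3a, an inhibitory hypoxia factor that glucocorticoids induce, had log2 ratios of -0.31, 1.45, 3.36, 1.24 and 1.71 at 54 µg and 2.37 to 3.54 at 162 µg. Its difference was 1.36 (95% interval 0.53 to 2.18), and without 54 µg replicate 3 it was 1.83 (adjusted p = 0.029, called). Fkbp5 and Hif3a were chosen for display after their values were seen.

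Ddit4, an inhibitor of mTOR signalling, had log2 ratios of -2.49, -1.58, -1.22, -1.48 and -1.83 at 54 µg and -1.33 to 0.69 at 162 µg. Only 162 µg replicate 5 lay within the range of 54 µg, and the difference was 1.42 (95% interval 0.68 to 2.15, adjusted p = 0.238). Arrdc2, Sgk1, Klf9, Sult1a1 and Tat, further members, differed by 0.76, 0.49, 0.40, 0.55 and 0.33. Tsc22d3 (GILZ), a classical receptor target named after its value was seen, differed by 0.28 (95% interval -0.50 to 1.06). The list level was -0.98, -0.20, 0.03, -0.02 and -0.42 in the 54 µg lungs and -0.01 to 0.47 at 162 µg. Clock genes, several of which also respond to glucocorticoids, had a median of 0.20 over 18 members, with Tef at 0.58, Per2 at 0.46 and Cry2 at 0.40. Times of day at death were not given in the sources used here.

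Metallothioneins, which bind zinc and are induced by metals, cytokines and glucocorticoids, had higher values at 162 µg. Mt1 had log2 ratios of -1.34, 0.64, -0.07 and 1.20 in the 4 lungs with a value at 54 µg, since 54 µg replicate 2 was an outlier spot. At 162 µg the lowest, median and highest values were 1.10, 1.44 and 1.88. The lowest 162 µg lung lay below the highest 54 µg lung, and the difference was 1.23 (95% interval 0.60 to 1.86, adjusted p = 0.236). Mt2 ranged from -0.86 to 1.98 at 54 µg and from 1.25 to 2.26 at 162 µg, with a difference of 1.00 (95% interval 0.20 to 1.80). Both Mt1 and Mt2 already lay above controls at 54 µg, by 1.71 (adjusted p = 0.0395) and 3.79 (adjusted p = 0.000644) in limma. The zinc importers Slc39a14 and Slc39a8 differed by 0.66 and 0.63. Of 12 expressed genes of this group 4 were higher and 1, the metal sensor Mtf1 at -0.27, was lower at an unadjusted p under 0.05.

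**Figure D3:**
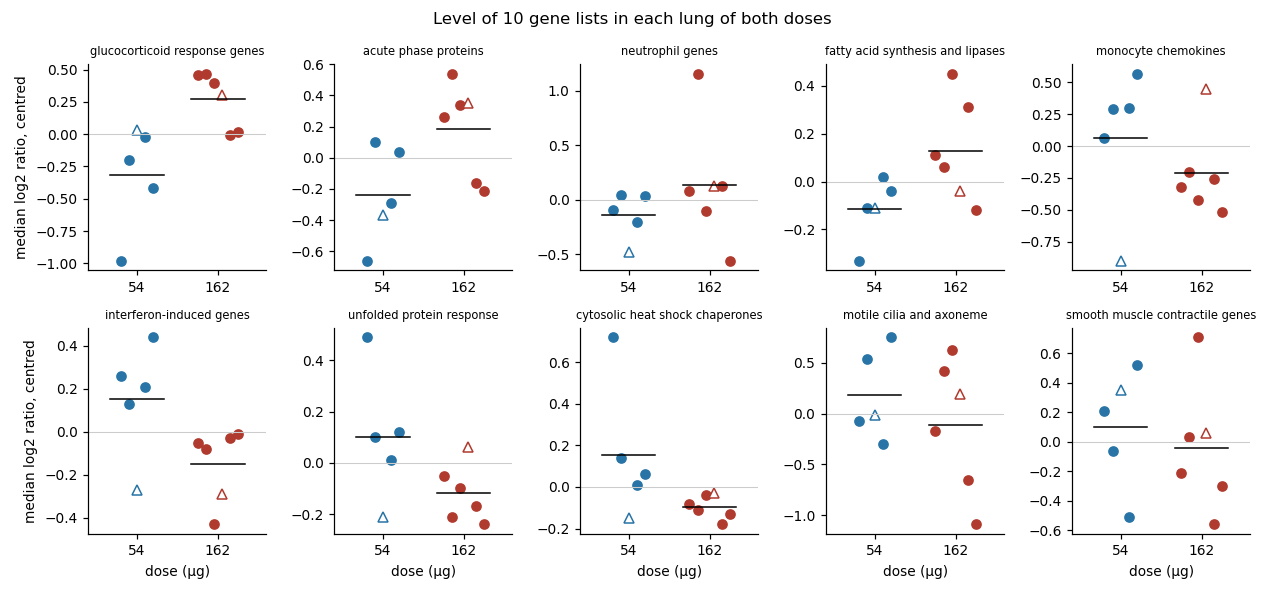
Median over the genes of 10 lists of the log2 ratio, each gene centred on its mean over the 11 lungs (vertical axes), in each lung at 54 µg and 162 µg (horizontal axes), with a line at the mean and triangles for the pair of lungs on slide 3. Interferon-induced genes sit between -0.43 and -0.01 at 162 µg, and 4 of the 54 µg lungs between 0.13 and 0.44. Glucocorticoid response genes sit between -0.01 and 0.47 at 162 µg and between -0.98 and 0.03 at 54 µg.

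Several genes of lipid storage and mitochondrial uncoupling had higher values at 162 µg. Of 23 expressed genes of fatty acid synthesis and lipases 6 had an unadjusted p under 0.05, all higher, beside 6.96% of all genes. For 3 genes of the list all 162 µg lungs lay above all 54 µg lungs, beside 0.369% of all genes. The median over the list was 0.13. Ucp3, a mitochondrial carrier induced when fatty acids are burned, had log2 ratios of 0.25, 1.25, 1.33, 0.94 and 0.82 at 54 µg and 1.47, 2.02 and 3.33 as lowest, median and highest at 162 µg. The doses did not overlap, and the difference was 1.16 (95% interval 0.64 to 1.68, adjusted p = 0.193), or 1.34 (adjusted p = 0.0297, called) without 54 µg replicate 3. Lipoprotein lipase (Lpl) had log2 ratios of 1.20, 1.75, 2.64, 2.03 and 2.59 at 54 µg and 2.91 to 3.79 at 162 µg, again with no overlap, and a difference of 0.95 (95% interval 0.40 to 1.5), or 0.51 on its second probe. Plin2, which coats lipid droplets, differed by 0.60, Lipe, hormone-sensitive lipase, by 0.58, and the lipase Pnpla2 and Ucp2 by 0.79 and 1.01. Pnpla2 and Ucp2 were called without 54 µg replicate 3, at 1.05 and 1.42.

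Adipocytes also express lipases, and adipocyte genes differed strongly between lungs. The median over 11 adipocyte genes was 0.39, 1.52, -3.61 and 2.59 on slides 3, 5, 6 and 7. Perilipin 1 (Plin1), a defining adipocyte gene, ran from 0.05 to 3.80 at 54 µg and from 0.19 to 6.16 at 162 µg, with the top values in 54 µg replicate 5 and 162 µg replicate 5. The highest Lpl value, 3.79, was also in 162 µg replicate 5, and the highest Ucp3 and Ucp2 values were in 162 µg replicate 6, where Plin1 was lowest at 162 µg. Plin1 differed by 0.65 (95% interval -1.15 to 2.46) and Plin4 by 0.95 (95% interval -0.60 to 2.49). The part of fat tissue in the Lpl difference was not tested.

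Protective and damage-induced genes had small positive medians. NRF2 targets, which detoxify electrophiles and store iron, had 8 of 34 members higher and 0 lower at an unadjusted p under 0.05, with a median of 0.08 that turned below the median of all genes under median centring. It was 0.16 without 54 µg replicate 3, with 10 higher and 2 lower. With all lungs the 8 were Osgin1 at 0.74, Prdx6 and Gsta1 at 0.58, Fth1 at 0.49, Sqstm1 at 0.44, Gclm at 0.39, Nqo1 at 0.34 and G6pdx at 0.30. Osgin1 did not overlap between the doses, with 54 µg lungs from -0.05 to 0.28 and 162 µg lungs from 0.35 to 1.38. Of 19 targets of p53, the factor that responds to DNA damage, 7 were higher and 1 lower at an unadjusted p under 0.05, and their median was 0.19. Cdkn1a, the p21 inhibitor of the cell cycle, differed by 1.00 (95% interval 0.35 to 1.64), and by 0.12 on its second probe. Trp53inp1 differed by 0.58, Pmaip1 and Sesn2 by 0.47, Plk3 by 0.32, Gdf15 by 0.30 and Zmat3 by 0.25, while the kinase Plk2 differed by -0.65 (95% interval -0.94 to -0.36). Plk2 lacked values in 54 µg replicates 2 and 3 and 162 µg replicate 4. Cdkn1a also belongs to the glucocorticoid list, and Sesn2 to that of the unfolded protein response.

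Proteasome subunits, which form the protein-degrading particle, had 6 of 31 members higher and 0 lower at an unadjusted p under 0.05, with differences from 0.21 for Psmb1 to 0.48 for Psmb7. Their median of 0.06 lay below that of all genes under 3 of 6 scalings, and the intervals of 28 of the 31 subunits lay inside 1.5-fold. Hypoxia and glycolysis genes had 4 higher and 1 lower of 29, with Pfkfb3 and Bnip3 at 0.59 and the collagen hydroxylase P4ha1 at -0.62. Xenobiotic enzymes had a median of 0.08 over 29 genes, with Cyp1b1 at 0.90, without values on slide 3, and Cyp2s1 at -0.65.

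**Figure D4:**
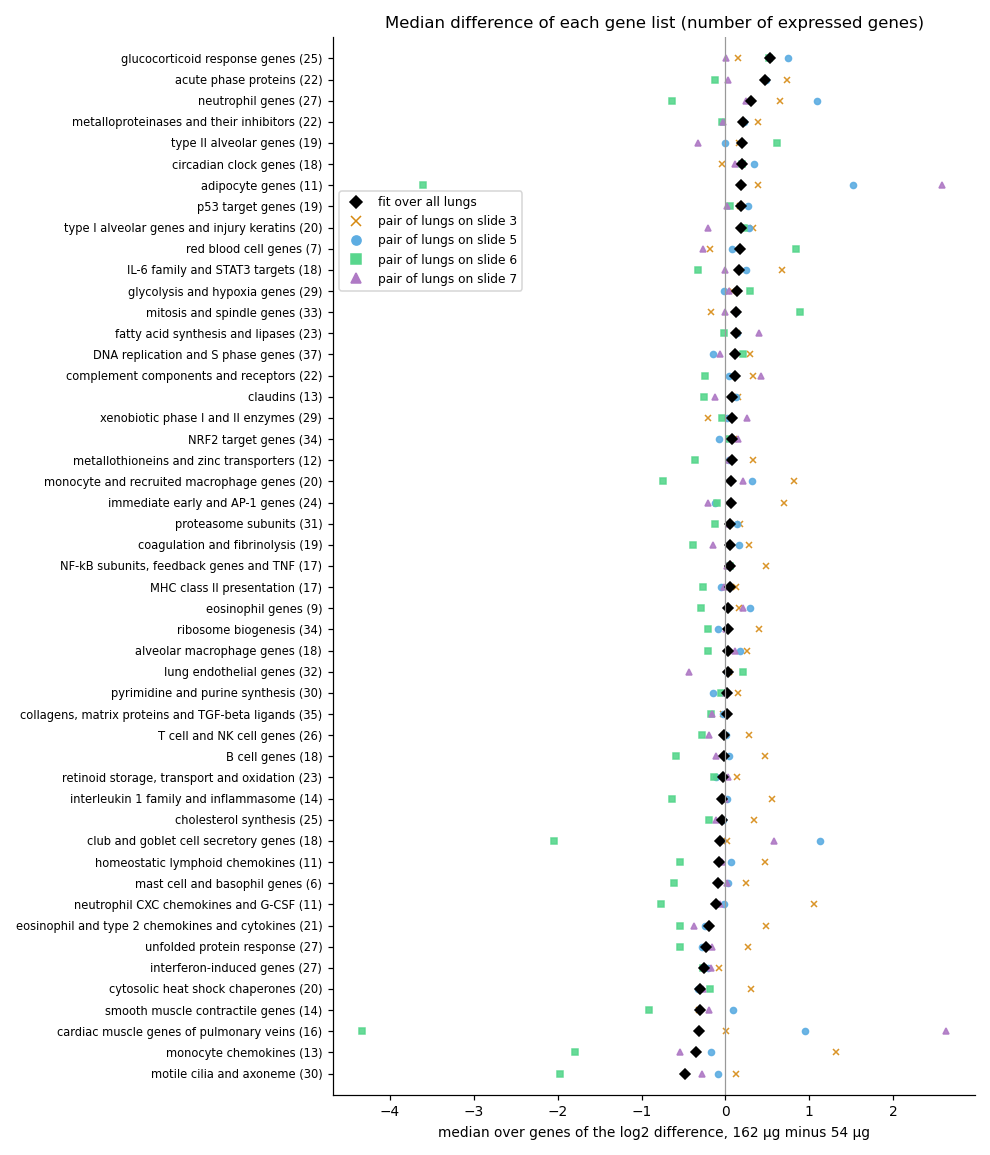
Median over expressed genes of the log2 difference, 162 µg minus 54 µg, for 49 gene lists (number of expressed genes in brackets), from the fit over all lungs (diamonds) and from the single pair of lungs on slides 3, 5, 6 and 7. Fitted medians run from -0.49 for motile cilia to 0.54 for glucocorticoid response genes, while single pairs run from -4.33 to 2.63.

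Genes of airway cells varied widely between lungs. Motile cilia genes had the lowest median of the lists, -0.49 over 30 genes, of which 28 were negative and 10 were lower at an unadjusted p under 0.05. The median was -0.14 without 54 µg replicate 5, and with no slide term it was -0.28, above the -0.35 of monocyte chemokines. On slides 3, 5, 6 and 7 the median was 0.13, -0.09, -1.97 and -0.28, with the most negative value in the pair that holds 162 µg replicate 6. Fam183b, a ciliary gene, had log2 ratios of 4.53, 5.10, 4.39 and 5.66 in 4 lungs at 54 µg and 2.26 to 5.38 in 5 lungs at 162 µg, with a difference of -1.24 (95% interval -2.07 to -0.41). Rsph1 differed by -0.73 and the dynein arm genes Dnah2, Dnah6 and Dnah11 by -0.92, -0.94 and -0.83. The median over cilia genes against controls was -0.90 for the low, -0.36 for the middle and -0.91 for the high dose. Smooth muscle genes had a median of -0.30 over 14 members, 5 of them lower at an unadjusted p under 0.05, and of -0.15 without 54 µg replicate 5. Of these Cnn1, a contractile regulator, ran from 2.18 to 4.61 at 54 µg and from 1.41 to 4.2 at 162 µg in the lungs with a value, and differed by -1.11 (95% interval -1.83 to -0.39).

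Clca3a1, a secreted regulator of chloride channels, had log2 ratios of 1.25, 2.87, 2.85 and 2.56 in 4 lungs at 54 µg and 3.26, 3.94 and 5.19 as lowest, median and highest of 5 lungs at 162 µg. The lungs with a value did not overlap, those on slide 3 had none, and the difference was 1.62 (95% interval 0.85 to 2.40, adjusted p = 0.216). The 18 expressed club and goblet genes had a median of -0.06, with 1 member higher and 1 lower at an unadjusted p under 0.05. Scgb1a1 differed by 0.15 (95% interval -0.45 to 0.76). Claudin 10 (Cldn10), a club cell junction protein, differed by -1.22, with its lowest value, 0.87, in 162 µg replicate 6. In the alveolar lists Ctsh, a protease that matures surfactant proteins, differed by 0.76 (95% interval 0.43 to 1.09) and was called at 0.96 without 54 µg replicate 3. Sftpc differed by 0.61 (95% interval -0.12 to 1.34), S100g by -0.57, the keratin Krt7 by 0.61 and the growth factor Ereg by 0.96. Areg and Hbegf, further ligands of the epidermal growth factor receptor, differed by 0.57 (95% interval -0.27 to 1.41) and -0.35 (-0.76 to 0.06).

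The macrophage scavenger receptor Marco had higher values at 162 µg. It had log2 ratios of 4.35, 5.14, 4.49, 5.11 and 5.47 at 54 µg and 5.45, 5.98 and 6.44 as lowest, median and highest at 162 µg, so that 54 µg replicate 5 and 162 µg replicate 6 overlapped. The difference of Marco was 1.16 (95% interval 0.56 to 1.76, adjusted p = 0.234). Over the 18 alveolar macrophage genes the median was 0.03, with 5 higher and 2 lower at an unadjusted p under 0.05, and Fabp1 differed by -1.10. Neutrophil genes had a median of 0.30 over 27 members, with Il1r2, a decoy receptor for interleukin 1, at 1.28 (95% interval 0.26 to 2.29) and Ncf1 at 0.40. By slide their median was 0.65, 1.09, -0.64 and 0.24, and it was 0.10 without 54 µg replicate 3 and -0.06 without 162 µg replicate 2. The eosinophil-associated ribonucleases Ear1, Ear2 and Rnase2a, which macrophages also express, differed by 0.53, 0.48 and 0.37. Arginase 1 (Arg1), a marker of macrophages in type 2 immunity, had log2 ratios of 2.87, 3.65, 3.30 and 3.70 in 4 lungs at 54 µg and 1.15 to 3.93 at 162 µg, with a difference of -1.16 (95% interval -2.15 to -0.17).

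Lists of B cells, T and NK cells, mast cells, MHC class II, monocytes and red blood cells had medians between -0.09 and 0.18 and no called gene. Within them the complement receptor Cr2 differed by -0.64, Tbx21 by -0.40, Cd40 by -0.25 and Hbb-b2 by 0.31. Endothelial genes had a median of 0.03 over 32 members, and 2 of them were called without 54 µg replicate 3. Vcam1, an adhesion molecule for leukocytes, had log2 ratios of 0.38, 0.52, -0.59, 0.54 and 0.41 at 54 µg and -0.85, -0.56 and -0.09 as lowest, median and highest at 162 µg. Only 54 µg replicate 3 lay among the 162 µg lungs. Vcam1 differed by -0.82 (95% interval -1.26 to -0.38), and by -1.11 (adjusted p = 0.0137) without that lung, while its second probe differed by 0.01. Apln, the ligand apelin, differed by -0.86 and by -1.16 (adjusted p = 0.0328) without that lung. Cardiac muscle genes, which line the pulmonary veins, had a median of -0.31 over 16 genes with pairs from -4.33 to 2.63, and of 0.48 without 54 µg replicate 5.

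Matrix genes differed in both directions, with 4 higher and 5 lower of 35 at an unadjusted p under 0.05 and a median of 0.02. The basement membrane collagens Col4a1 and Col4a2 differed by 0.80 and 0.56 and the crosslinking oxidase Lox by 0.96 (95% interval 0.41 to 1.51), while the fibrillar collagens Col3a1 and Col5a1 differed by -0.60 and -0.34. Without 54 µg replicate 3, Lox at 1.31 and Col4a1 at 1.06 were called higher and Col3a1 at -0.99 and Serpinh1 called lower. Among inhibitors of proteolysis, Timp1 differed by -0.13 (95% interval -1.37 to 1.12) and Timp3 by 0.47, and the protease Adamts9 by -0.44. The plasminogen activator Plat differed by 0.47.

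Lists of growth and division had medians near 0. Mitosis genes had a median of 0.13 over 33 members with 0 at an unadjusted p under 0.05 in either direction, with Bub1b at 0.28 and Top2a at 0.32, and their medians against controls were 0.49 at 18 µg, -0.12 at 54 µg and 0.06 at 162 µg. S phase genes had a median of 0.11, ribosome biogenesis 0.03, purine and pyrimidine synthesis 0.02, cholesterol synthesis -0.04, NF-kB genes 0.05 and immediate early genes 0.06. Myc differed by 0.30 (95% interval -0.06 to 0.67). Retinoid genes had a median of -0.02, complement genes 0.11, coagulation genes 0.05, metalloproteinases and inhibitors 0.22, claudins 0.09 and the interleukin 1 family -0.03. Housekeeping genes differed by -0.02 for Hprt (95% interval -0.24 to 0.20), -0.14 for Actb (-0.54 to 0.25) and 0.30 for Gapdh (-0.05 to 0.65), the last with values in 3 of 5 lungs at 54 µg. All 7 expressed probes of Gapdh had a positive difference, from 0.08 to 0.64. Of all 49 lists 28 kept the sign of their median, taken relative to all genes, under 6 scalings of the arrays, and 4 had a median of one sign with all lungs and in all 4 slide pairs, the interferon, glucocorticoid, p53 and NF-kB lists. Leaving out a single lung of 54 or 162 µg turned the sign of the median in at least 1 case for 28 lists, NF-kB genes among them, and in no case for 21. The sign changed in a scaling for 21 lists, all of them with medians between -0.11 and 0.20.

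Genes outside the lists with the smallest p were single genes of varied roles, named after their values were seen. Sphk1, which makes sphingosine 1-phosphate, had log2 ratios of 0.93, 1.74, 2.29, 1.63 and 1.66 at 54 µg and 2.32, 3.1 and 3.47 as lowest, median and highest at 162 µg, with no overlap. Its difference was 1.28 (95% interval 0.84 to 1.72, adjusted p = 0.106). Placental growth factor (Pgf), an angiogenic ligand, had log2 ratios of 0.29, 0.66, 0.61, 0.05 and 0.73 at 54 µg and 0.55, 1.34 and 1.81 as lowest, median and highest at 162 µg, overlapping through 162 µg replicate 5. It differed by 0.82 (95% interval 0.55 to 1.09, adjusted p = 0.0859). Pgf was above controls by 0.53 at 18 µg, 0.88 at 54 µg and 1.70 at 162 µg in limma, each with an adjusted p of at most 0.05. The transcription factor Etv1 lay between -1.69 and -0.92 at 54 µg and between -2.41 and -1.93 at 162 µg, with a difference of -0.67 (95% interval -0.91 to -0.44, adjusted p = 0.106). Tcf23, without a value in 162 µg replicate 4, and Gas2 differed by 1.07 and 0.68, both with an adjusted p of 0.106.

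Whether responses of the lowest dose went on or turned back was read from genes called at 18 µg against controls in the fit over all 22 arrays. That fit shares its slide terms and variance with the lungs of the other doses, so the choice is not independent of them. These were 340 of 16285 genes (2.09%), 104 higher and 236 lower at 18 µg. From 54 to 162 µg 0 of them were called onward and 0 were called back. For 163 of the 340 (47.9%) the interval of the step lay inside 1.5-fold, against 73.7% of all genes, and 177 were unresolved. With the sign turned so that a positive step continues the direction at 18 µg, the median step was 0.17, or 0.20 for genes lower and 0.12 for genes higher at 18 µg. At an unadjusted p under 0.05, 63 genes (18.5%) stepped onward and 13 (3.82%) back. Of genes lower at 18 µg 55 (23.3%) stepped onward, beside 6.05% of all genes that were lower at 162 µg. Of genes higher at 18 µg 8 (7.69%) did, near the 6.96% of all genes that were higher at 162 µg. The steps back were 9 (3.81%) and 4 (3.85%). Against controls the genes lower at 18 µg had medians of -0.87 at 18 µg, -0.59 at 54 µg and -0.77 at 162 µg. For genes higher at 18 µg these medians were 0.805, 0.42 and 0.43. An onward step from 54 µg thus did not carry either median past its level at 18 µg. The 18 µg values chose the genes, which tends to enlarge that level. Genes named below for the size of their step, or for a call without 1 lung, were chosen after their values were seen. The largest onward steps were Saa3 at 1.24 and Serpina3m at 1.11, followed among genes lower at 18 µg by the cytochrome Cyp4f15 at -1.01, 1700024G13Rik at -0.87 and the ciliary genes Ttll9 and Cfap161 at -0.84. Against controls Saa3 stood at 4.27, 5.13 and 6.37 at 18, 54 and 162 µg. Cyp4f15 stood at -1.46, -0.48 and -1.48, so its step led back to the level at 18 µg.

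The most negative steps back had intervals that reached past 1.5-fold. Arg1, higher by 2.06 at 18 µg, stepped back by -1.16, the anion exchanger Slc26a4, higher by 3.06, by -0.76 (95% interval -2.30 to 0.78), and Ccl7, higher by 2.75, by -0.72. Among genes lower at 18 µg, Selenbp1 at -1 stepped back by 0.75 (95% interval 0.32 to 1.17), the clock-linked protease Usp2 at -1.28 by 0.67 and Trp53inp1 at -0.93 by 0.58. Without 54 µg replicate 3, 5 of the 340 were called back and 0 onward, Ccl7, Selenbp1, Trp53inp1, Upk1a and Mettl1, with steps of -1.75, 0.95, 0.85, 0.61 and -0.71. Timp1, higher by 3.17 at 18 µg, and Asgr1, a lectin receptor lower by 1.80 at 18 µg, had steps of -0.13 and 0.10 (95% interval -0.25 to 0.45), and the 2 probes of Asgr1 differed in sign. Ch25h, the cholesterol 25-hydroxylase, which was not called at 18 µg, differed by 0.07 (95% interval -0.92 to 1.06). The fixed gene Aldh3a1, at -1.03 at 18 µg, had an onward step of -0.34 (95% interval -0.59 to -0.09, adjusted p = 0.412 in limma).

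**Figure D5:**
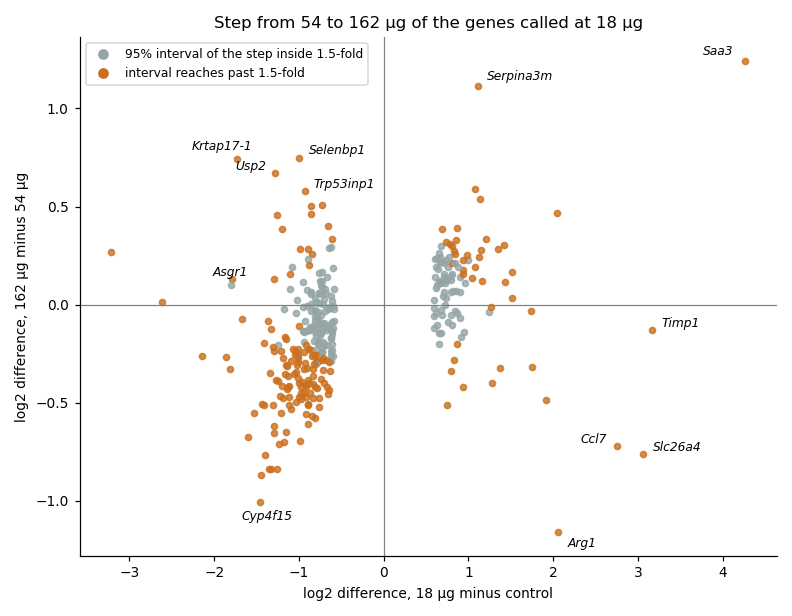
Step from 54 to 162 µg (vertical axis, log2 difference) against the difference between 18 µg and controls (horizontal axis, log2) for the 340 genes called at 18 µg, in grey where the 95% interval of the step lies inside 1.5-fold (163 genes) and in orange where it reaches past it (177 genes). Points in the upper right and lower left continue the direction at 18 µg. Saa3 lies highest at 1.24 and Arg1 lowest at -1.16.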

How the data were processed

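RNA of 22 right lungs was hybridised on dual-colour Agilent arrays. The authors deposited intensity values, here the median signal per spot and channel, exported by Agilent Feature Extraction (version 10.7.3.1 in the headers) without background subtraction or normalization. The deposited log2 value matrix of the series, whose normalization is not stated, served as an alternative. Its array medians lay between -0.0516 and -0.0166, its direction followed the intensities (correlation across probes of each array from 0.834 to 0.998), and its scaling is unknown.

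Outlier spots were left out. The log2 ratio of both channels was normalized by loess in each array (span 0.3). Dose and slide were fitted over 22 arrays and 7 slides in limma 3.58.1 (R 4.3.3, data.table version 1.17.8), with 12 residual degrees of freedom, in place of the study's ANOVA tool. Adjustment by Benjamini and Hochberg covered 55681 probes. Calls required an adjusted p no higher than 0.05, 1.5-fold, and a Cy5 signal above the trimmed mean plus 3 trimmed standard deviations of 308 negative control spots on at least 80% of arrays of either dose. RefSeq accessions named 26413 probes as 20018 genes, each represented by its brightest probe. Each slide was scanned once, so slide and scan cannot be told apart.

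The rule for naming took the top called genes without overlap, the 2 members of smallest p in each list, 30 fixed genes and genes called onward or back from 18 µg. Members and lists were chosen with earlier results of these data known. No list was tested, and the fit was tested on simulated data. Median Cy5 signal over local background was 1.37 to 2.07 at 54 µg and 1.18 to 2.50 at 162 µg, a mean difference of 0.0859 (exact permutation test over 462 regroupings, 2-sided p = 0.753). The number of arrays limits the precision. Replicate numbers do not pair the lungs, since the deviations of same-numbered lungs correlated at 0.141, 0.545, 0.1, -0.018 and 0.189. Only the pair at 0.545 shared a slide, and the pairs of both doses on slides 3, 6 and 7 correlated at -0.048, -0.114 and 0.231. Alternatives were other normalizations, filters, thresholds, slide terms and leaving out each lung.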

Additional observations from a re-analysis of the deposited data

Results flagged for a closer look

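Among 251 groups of 5 or 6 lungs of named genes, 18 (7.17%) had a lung far from the others, and chance gives such a lung in about 1 in 20 groups. Some of these genes were named after their values were seen, several for a call without 54 µg replicate 3. The count can therefore not be judged against that rate. Of the 18, 5 were in 54 µg replicate 3. They were Ccl24 at -2.58 against 1.40 to 2.27 in the other lungs of its dose, Vcam1 at -0.59 against 0.38 to 0.54, Plin2 at -0.12 against 0.79 to 1.11, Cd209c at 0.34 against 1.37 to 1.74, and Adm, the vasodilator adrenomedullin, at -0.73 against -1.50 to -1.28. Of the other 54 µg lungs, replicate 1 stood apart in the co-chaperone Chordc1 at 0.69 against 0.29 to 0.40 and in Edem1 at 0.19 against -0.86 to -0.73.

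At 162 µg, replicate 6 stood apart in Areg at 0.15 against 1.55 to 2.35, Cldn10 at 0.87 against 2.80 to 3.89, Etv1 at -2.41 against -2 to -1.93, Ucp2 at 3.96 against 1.76 to 2.49, the AP-1 subunit Fosl1 at -1.92 against -2.92 to -2.61 and the globin Hba-a2 at 7.42 against 5.99 to 6.44. Replicate 3 stood apart in Cxcl1 at -2.82 against -2.02 to -1.55 and in the early gene Ier2 at 0.67 against -1.32 to -0.75. Replicate 2 stood apart in Rnase2a at 6.76 against 5.88 to 6.12, replicate 4 in Apln at -0.52 against -1.33 to -1.05, and replicate 5 in Lpl at 3.79 against 2.91 to 2.99. No cause was tested for any of these lungs.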

How the results depend on the processing

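The count of 0 genes and 0 probes called between the doses held without normalization within arrays, with median centring, normexp, the Cy5 channel alone, the deposited log2 values, no slide term, fits of 11 or 8 arrays, other filters, adjustments and fold thresholds, and with outlier spots kept. It was 3 genes and 4 probes with quantile and scale normalization (Pdia5 and Etv1 lower, Pgf higher) and 3 genes and 4 probes with slide as a random block (Pdia5 lower, Eci2 and Sphk1 higher). With the replicate block in place of slide it was 1 gene and 1 probe, Pdia5 at -1.12, although the replicate numbers do not pair the lungs. The median difference of all genes was -0.357 without normalization and -0.173 with median centring. Leaving out single lungs gave 0 to 171 genes and 0 to 296 probes. Counts above 0 came without 54 µg replicate 3 (171 genes) and 162 µg replicate 4 (48). They also came without 54 µg replicate 5 (5 genes, Pdia5 lower and Agpat3, Gm5643, Pgf and Apod higher), 162 µg replicate 5 (3, Pdia5 lower, Pgf and Sphk1 higher) and replicate 6 (3, Pdia5 lower, Orm3 and Tcf23 higher), control replicate 3 (2, Pdia5 lower and Rragc higher) and 18 µg replicates 4 and 5 (1 each, Pdia5). These genes were named because their calls were few, after their values were seen. Without 54 µg replicate 2 there was 1 probe and 0 genes. Leaving out the 3 arrays of slide 3, chosen after seeing the data, gave 209 genes (1.33%) and 359 probes, with 157 of the genes among the 171. The cause was not tested.

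The 340 genes called at 18 µg became 2 without normalization (1 inside 1.5-fold and 1 unresolved), 107 with median centring (24 and 83) and 60 with the deposited log2 values (34 and 26). Leaving out single lungs of 54 or 162 µg gave 204 to 582 such genes, the fewest without 54 µg replicate 2 and the most without 54 µg replicate 5, and 560 without 162 µg replicate 6. Counts inside 1.5-fold ran from 92 to 309, with 94 without 54 µg replicate 4, and unresolved counts from 112 to 284. Counts turned back ran from 0 to 12, with 12 without 54 µg replicate 3 and 2 without 162 µg replicate 4. In these alternatives 0 genes were called onward.

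For single named genes, settings other than leaving out 1 lung gave 2717 values of the same sign with no call. They gave 34 of the same sign that were called and 49 of the other sign with no call. These settings include the fit without the 3 arrays of slide 3, which called 209 genes, while no other setting among them called more than 3. No called value changed its sign. Spots near background limit the dim genes. Il1a was well above background in 1 lung of each dose, and Csf3 in 2 lungs at 54 µg and 4 at 162 µg.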
